A study of Mus musculus with 24 samples.

Results

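The genes described are 10 components of the SMAD branch of TGFb signalling: the signal transducers Smad2, Smad3 and Smad4, the inhibitory Smad7, the nuclear corepressors Ski and Skil, the membrane adaptors Pmepa1 and Ldlrad4, and the ubiquitin ligases Smurf1 and Smurf2. They were chosen by name, as a pathway, though with earlier results of these data known. All 10 were found by gene symbol among 16604 genes of the table. The 24 libraries come from EMS404, an SV40-immortalized line of hepatic stellate cells from C57Bl6 mouse liver that also expresses human TLR4, so that every group shares these features and stands for 1 line. Stellate cells are the liver's main source of scar-forming myofibroblasts. The 8 groups of 3 biological replicates were vehicle (untreated in the sample titles, DMSO in the library names), TGFb, SB431542, SB431542+TGFb, SR9011, SR9011+TGFb, CLK8 and CLK8+TGFb. SB431542 inhibits the TGFb receptor, SR9011 is an agonist of the clock repressor REV-ERB, and CLK8 disturbs the pairing of the clock activators CLOCK and BMAL1. Compounds were given for 24 h, and the groups with TGFb then received it at 10 ng/mL for another 24 h with the compound still present. The sources used here give no compound doses and do not say how long cells without TGFb stayed in culture, so TGFb cannot be told apart from time in culture in comparisons of groups with and without it.

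TGFb binds a pair of receptor kinases that phosphorylate SMAD2 and SMAD3, which join SMAD4, enter the nucleus and regulate transcription. The response is held in check at each step. SMAD7 occupies the receptor and brings in the SMURF ligases, PMEPA1 and LDLRAD4 keep SMAD2 and SMAD3 from the receptor, and SKI and SKIL bind SMAD complexes on DNA and recruit repressors. Several of these inhibitors are themselves classical SMAD-induced genes, which makes them feedback inhibitors, and in stellate cells this circuit bears on how far TGFb drives matrix production.

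Values are FPKM (fragments per unit of transcript length and of library total), which allows levels of different genes to be compared. Read totals per library are unknown, and FPKM summed to between 503920 and 610024 per library. Relative depth, estimated from the smallest value steps of 12 low genes, ranged from 0.94 to 1.05. Only genes whose steps were alike in the libraries that detected them were kept, so this estimate cannot show that depth was equal. Differences between groups are on the scale of log2(FPKM + 1), where changes of genes near 1 FPKM come out too small, while fold values are ratios of mean FPKM. A gene is said to have risen or fallen where limma's p, adjusted by Benjamini-Hochberg over the 11297 genes tested, was under 0.05. Of the stellate cell or myofibroblast markers, 7 of 8 were in the table and Lrat was not, and Des and Rgs5 were under 1 FPKM in every library. The summed level ran from 523 to 643 FPKM in SR9011 to 2772 to 3176 FPKM in TGFb. That sum is mostly the collagen gene Col1a1 (mean 1574 FPKM in vehicle), and single markers moved otherwise: Pdgfrb was higher than vehicle with SR9011 (17.9 against 10.6 FPKM, log2 0.71), and Hand2 was lower with TGFb (57.9 against 69 FPKM, log2 -0.25). All measured hepatocyte markers (3 of 4 in the list) and endothelial markers (4 of 4) were under 1 FPKM in every library, whereas the 3 mesothelial markers Msln, Upk3b and Wt1 summed to 273 to 292 FPKM in vehicle, 114 to 124 in TGFb, 367 to 385 in SB431542, 290 to 349 in SB431542+TGFb, 60.2 to 89.3 in SR9011, 58.2 to 73.1 in SR9011+TGFb, 75.7 to 91.2 in CLK8 and 48.2 to 58.6 in CLK8+TGFb. The mesothelial sum is mostly Upk3b (mean 252 FPKM in vehicle), while Msln moved the other way, from 5.65 FPKM in vehicle to 7.65 in TGFb, 16.8 in SR9011 and 29.3 in SR9011+TGFb. The 4 cholangiocyte markers, with Epcam under 1 FPKM in every library, summed to 8.08 to 10.50 FPKM in vehicle, 7.20 to 8.43 in TGFb, 4.04 to 4.67 in SR9011, 2.51 to 3.12 in SR9011+TGFb, 4.43 to 5.13 in CLK8 and 3.73 to 5.39 in CLK8+TGFb. The 2 measured of 4 leukocyte markers summed to between 0.83 and 2.90 FPKM, with Ptprc under 1 FPKM throughout. The stellate, mesothelial and cholangiocyte sums therefore move with the groups compared below, and their part in the results was not tested. In bulk RNA, fewer cells of a type and less RNA per cell cannot be told apart. Among the members, SR9011 replicate 1 stood away from the other SR9011 libraries for Smad4, Skil and Smurf2. It also stood away for some other pathway genes, such as Usp9x (16.11 against 24.04 and 23.27 FPKM) and Ep300 (15.38 against 21.69 and 21.28 FPKM). Its FPKM sum of 610024 was the highest of all libraries, so its deviation is not limited to the members. Calls of members that change without it are given both ways.

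**Figure D1:**
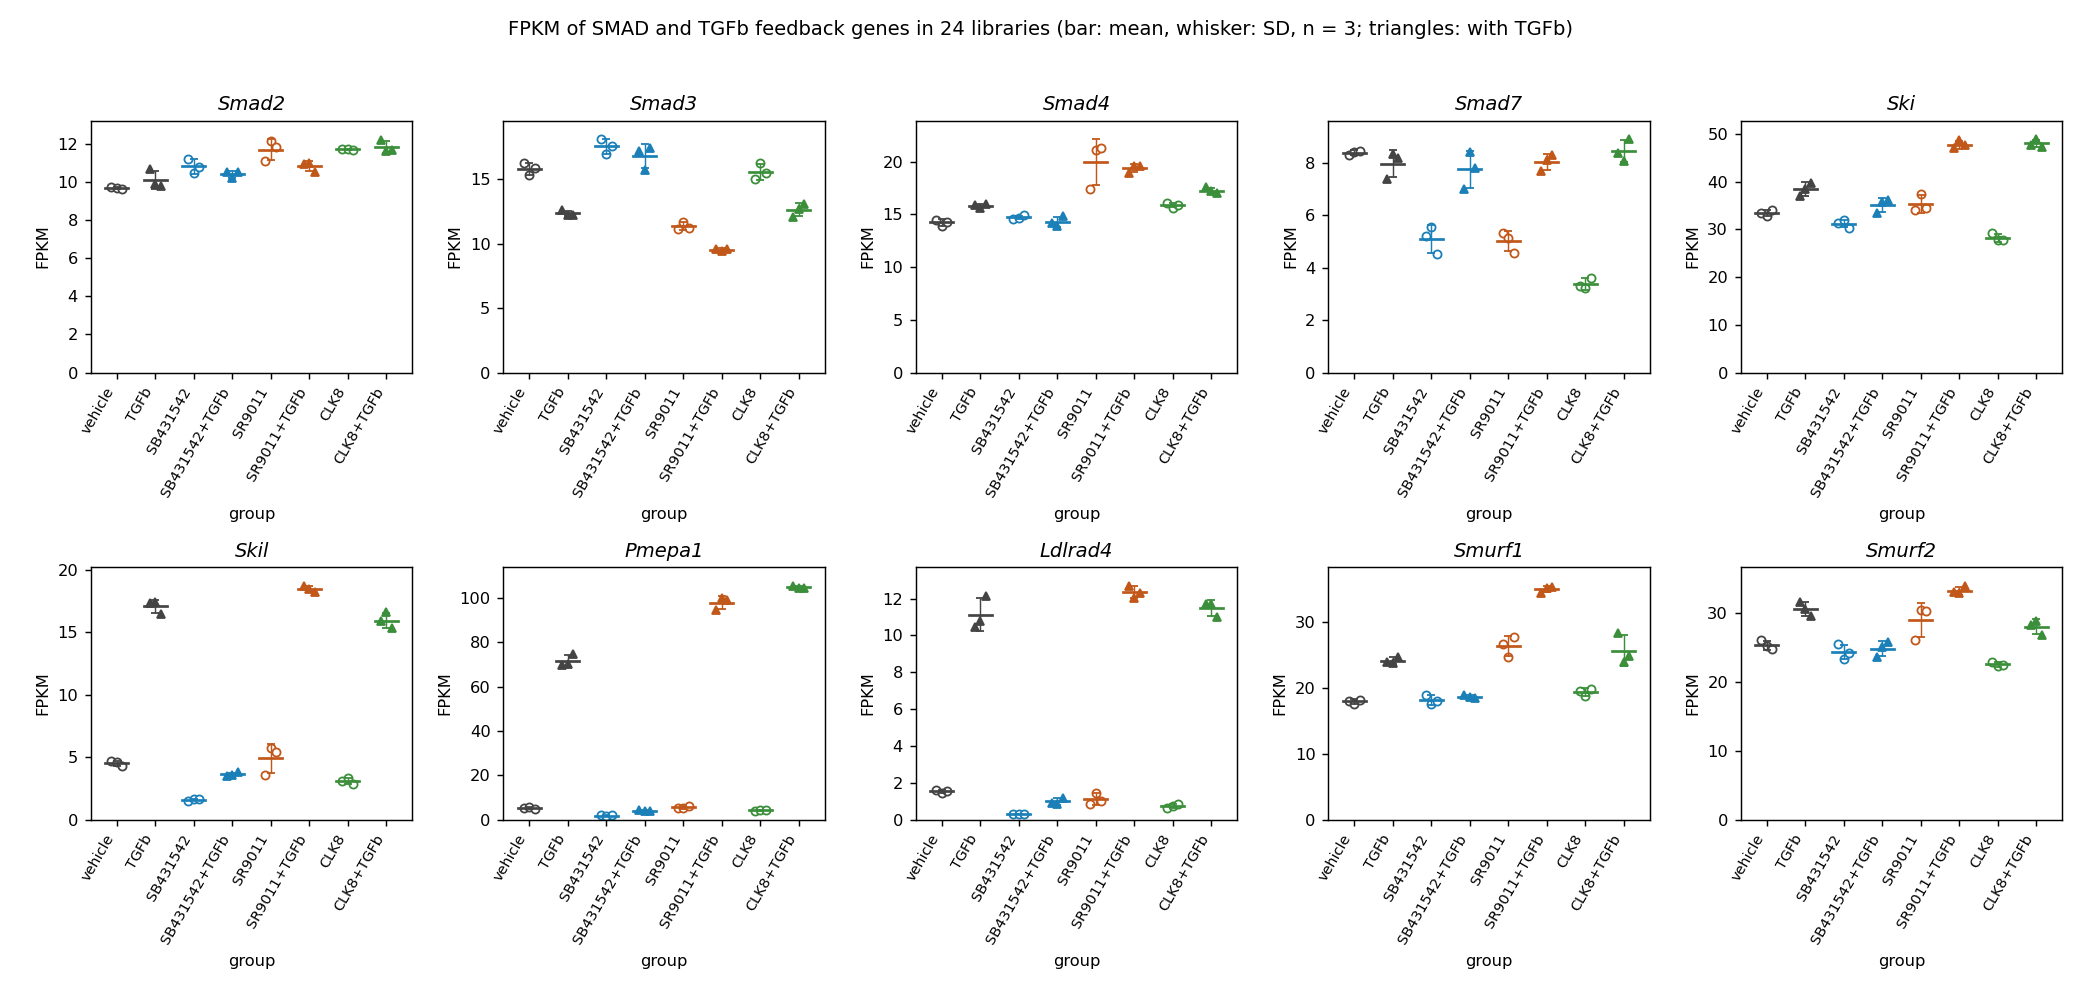
FPKM (vertical axes, linear and starting at 0) of the 10 genes in each of the 24 libraries by group, with points for libraries (triangles where TGFb was given), bars for group means and whiskers for the SD (n = 3). Pmepa1, Ldlrad4 and Skil stand high in TGFb, SR9011+TGFb and CLK8+TGFb and low in the other 5 groups, whereas Smad7 stands low in the 3 groups that received a compound without TGFb.

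Smad2 (ENSMUSG00000024563, chromosome 18, 76241580 to 76310963, mm10, plus strand) and Smad3 (ENSMUSG00000032402, chromosome 9, 63646767 to 63757994, minus strand) encode the receptor-activated SMADs of the TGFb and activin branch. Smad2 was the steadiest of the 10 genes, with group means from 9.68 FPKM in vehicle to 11.8 FPKM in CLK8+TGFb, a 1.22-fold span. Smad3 spanned 1.84-fold, from 9.53 FPKM in SR9011+TGFb to 17.6 FPKM in SB431542. In vehicle the 3 libraries held 16.25, 15.35 and 15.86 FPKM of Smad3, and with TGFb 12.60, 12.23 and 12.26. All TGFb libraries lay below all vehicle libraries, and Smad3 fell by 0.33 on the log2 scale (SE 0.045, limma adjusted p = 1.63e-06). Smad2 did not pass the test, at 9.72, 9.68 and 9.65 FPKM in vehicle against 10.66, 9.91 and 9.77 with TGFb (log2 0.06, 95% interval -0.03 to 0.15), but was called higher under quantile normalization (log2 0.11, adjusted p = 0.0205). Within SR9011 the Smad2 change with TGFb was -0.10 (95% interval -0.19 to -0.01, limma adjusted p = 0.0638), and without SR9011 replicate 1 it was called lower (log2 -0.14, limma adjusted p = 0.0139). The direction of Smad3 was therefore opposite to that of the other members that TGFb changed.

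Smad3 also fell with TGFb within SR9011 (log2 -0.23, limma adjusted p = 0.000202) and within CLK8 (log2 -0.28, limma adjusted p = 1.51e-05). Within SB431542 the values were 18.09, 16.97 and 17.59 FPKM without TGFb and 17.17, 15.72 and 17.46 with it. These libraries overlapped and the change did not pass the test (log2 -0.06, 95% interval -0.16 to 0.03). The Smad3 response with SB431542 differed from the response without compound by 0.27 (interaction, limma adjusted p = 0.00223). With SR9011 and CLK8 the interactions for Smad3 were 0.10 (95% interval -0.03 to 0.23) and 0.05 (95% interval -0.08 to 0.18), and neither passed the test.

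SR9011 gave the lowest Smad3 levels of the study. The SR9011 libraries held 11.18, 11.72 and 11.22 FPKM and the SR9011+TGFb libraries 9.57, 9.40 and 9.61 FPKM, all below every library of the other 6 groups. Against vehicle the SR9011 difference was -0.44 (limma adjusted p = 9.54e-09), and against TGFb the SR9011+TGFb difference was -0.34 (limma adjusted p = 7.26e-07). CLK8 did not change Smad3 past the threshold without TGFb (log2 -0.02, 95% interval -0.11 to 0.07) or with it (log2 0.03, 95% interval -0.07 to 0.12). Smad2 rose 1.21-fold with SR9011 and also 1.21-fold with CLK8 against vehicle (log2 0.25 in both). In SR9011+TGFb against TGFb, Smad2 did not pass the test (log2 0.09), though it did without TGFb replicate 1 (log2 0.13, limma adjusted p = 0.0264). The ratio of Smad3 to Smad2 thus moved from both sides with SR9011 alone. That ratio was 1.63 ± 0.0439 in vehicle, 1.22 ± 0.0375 in TGFb, 0.974 ± 0.0313 in SR9011 and 0.88 ± 0.0293 in SR9011+TGFb (SD, n = 3). With SB431542 it was 1.62 without and 1.61 with TGFb, and with CLK8 it was 1.33 and 1.07. The SB431542 rises of Smad2 and Smad3 over vehicle (log2 0.15 and 0.14, limma adjusted p = 0.0223 and 0.0338) missed the threshold under TPM scaling, where the estimates were 0.17 and 0.16 with larger errors (adjusted p = 0.0526 and 0.0633), and under quantile normalization, where both were 0.10 (adjusted p = 0.0918 and 0.153). Both also missed it in a fit of the compared groups alone (adjusted p = 0.0586 and 0.0616) and without vehicle replicate 2 or 3 or SB431542 replicate 1 or 3 (adjusted p between 0.056 and 0.131), and Smad2 without vehicle replicate 1 (adjusted p = 0.0575).

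Smad4 (ENSMUSG00000024515, chromosome 18, 73639009 to 73703780, minus strand) encodes the common partner of all receptor-activated SMADs. Its highest levels were in SR9011, at 17.42, 21.08 and 21.34 FPKM, and in SR9011+TGFb, at 18.98, 19.63 and 19.62 FPKM. Vehicle libraries held 14.51, 13.90 and 14.31 FPKM and TGFb libraries 15.89, 15.59 and 15.98 FPKM. Both SR9011 groups lay above both of these groups in every library, and the rise over vehicle was 1.4-fold (log2 0.45, limma adjusted p = 6.55e-08), or log2 0.54 without SR9011 replicate 1. TGFb raised Smad4 1.11-fold (log2 0.14, SE 0.052, limma adjusted p = 0.0249), a call lost when vehicle replicate 2 or 3, or TGFb replicate 1 or 3, was left out, with adjusted p between 0.0504 and 0.0857. Within SR9011, TGFb did not change Smad4 past the threshold (log2 -0.03, 95% interval -0.14 to 0.08), but without SR9011 replicate 1 it was called lower (log2 -0.12, limma adjusted p = 0.0115). Within CLK8 the change with TGFb did not pass either (log2 0.11), though the CLK8+TGFb libraries (17.05 to 17.57 FPKM) lay above the CLK8 libraries (15.65 to 16.11 FPKM). Smad4 was called higher there under TPM scaling (adjusted p = 0.0133), quantile normalization (0.00875) and in a fit of the compared groups alone (0.0493).

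Smad7 (ENSMUSG00000025880, chromosome 18, 75367529 to 75395935, plus strand) encodes the inhibitory SMAD that blocks the receptor. It is a textbook TGFb-induced gene. Its level after 24 h of TGFb did not differ from vehicle past the threshold. The vehicle libraries held 8.27, 8.41 and 8.45 FPKM and the TGFb libraries 7.38, 8.33 and 8.17. The groups overlapped, and the difference was -0.07 (95% interval -0.21 to 0.08, limma adjusted p = 0.431).

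Smad7 was instead lower with each compound given without TGFb. SB431542 libraries held 5.19, 5.54 and 4.51 FPKM, SR9011 libraries 5.32, 5.13 and 4.57, and CLK8 libraries 3.28, 3.21 and 3.62. Each lay below all vehicle libraries, by 1.65-fold with SB431542 (log2 -0.63, limma adjusted p = 6.35e-07), 1.67-fold with SR9011 (log2 -0.64, limma adjusted p = 2.01e-08) and 2.49-fold with CLK8 (log2 -1.10, limma adjusted p = 1.73e-11). All CLK8 libraries were below all SB431542 and SR9011 libraries, which overlapped each other. These comparisons share the vehicle libraries.

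When TGFb was added to a compound, Smad7 stood in the range of vehicle and TGFb again. Libraries held 7.01, 8.40 and 7.81 FPKM in SB431542+TGFb, 7.69, 8.09 and 8.30 in SR9011+TGFb, and 8.38, 8.07 and 8.89 in CLK8+TGFb. All 3 groups overlapped both vehicle and TGFb, and against TGFb the differences were -0.04 (95% interval -0.18 to 0.11), 0.01 (95% interval -0.13 to 0.15) and 0.08 (95% interval -0.07 to 0.22), none past the threshold. Within a compound, TGFb therefore raised Smad7 by 0.52 with SB431542 (limma adjusted p = 4.18e-05), 0.59 with SR9011 (limma adjusted p = 2.72e-07) and 1.11 with CLK8 (limma adjusted p = 3.18e-12), the last a 2.51-fold rise. Each response differed from that without compound, by 0.59, 0.66 and 1.18 in the same order (interaction, limma adjusted p = 5.61e-05, 2.41e-05 and 9.6e-08). The 5 groups other than the compounds alone spanned only 7.74 to 8.45 FPKM in their means.

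Ski (ENSMUSG00000029050, chromosome 4, 155154075 to 155222592, minus strand) and Skil (ENSMUSG00000027660, chromosome 3, 31095058 to 31122577, plus strand) encode the corepressors SKI and SnoN. Ski was the most abundant of the 10 genes in vehicle and in the 4 groups SB431542, SB431542+TGFb, SR9011 and CLK8, where its group means ran from 28.2 to 35.3 FPKM. Skil was low in those groups, from 1.59 FPKM in SB431542 to 4.89 FPKM in SR9011. With TGFb, Skil rose 3.78-fold, from 4.65, 4.59 and 4.29 FPKM in vehicle to 17.36, 17.40 and 16.43 FPKM (log2 1.71, SE 0.088, limma adjusted p = 1.13e-13). Ski rose 1.15-fold, from 33.45, 32.80 and 34.06 FPKM to 36.88, 38.50 and 39.79 FPKM (log2 0.19, SE 0.042, limma adjusted p = 0.000491). In both genes all TGFb libraries lay above all vehicle libraries, and the ratio of Skil to Ski went from 0.135 ± 0.00782 to 0.445 ± 0.0295 (SD, n = 3).

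SB431542 lowered Skil below vehicle, to 1.52, 1.62 and 1.62 FPKM (2.84-fold lower, log2 -1.09, limma adjusted p = 8.69e-09). With SB431542 present, TGFb brought Skil to 3.50, 3.54 and 3.78 FPKM, which was 2.27-fold above SB431542 alone (log2 0.83, limma adjusted p = 2.08e-06) and below every vehicle library. The difference of that last group from vehicle did not pass the test (log2 -0.26, limma adjusted p = 0.119), though it did with quantile normalization (adjusted p = 0.0179) and in a fit of the compared groups alone (adjusted p = 0.029). CLK8 lowered Skil to 3.07, 3.35 and 2.87 FPKM (log2 -0.43, limma adjusted p = 0.000371). SR9011 libraries held 3.59, 5.71 and 5.37 FPKM, on both sides of vehicle, and did not pass the test (log2 0.08, 95% interval -0.10 to 0.26). Without SR9011 replicate 1, the library at 3.59 FPKM, Skil was called higher than vehicle (log2 0.25, limma adjusted p = 0.000344). In the presence of TGFb neither SR9011 (log2 0.11, 95% interval -0.07 to 0.29) nor CLK8 (log2 -0.09, 95% interval -0.28 to 0.09) changed Skil past the threshold, whereas SB431542 lowered it 4.73-fold (log2 -1.97, limma adjusted p = 7.16e-15). The SR9011+TGFb libraries, from 18.25 to 18.68 FPKM, nevertheless all lay above the TGFb libraries, and Skil was called higher when these groups were fitted by themselves (adjusted p = 0.0367).

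For Ski, both clock compounds gave higher levels past the threshold in the presence of TGFb, and the difference between Ski and Skil was not tested. SR9011+TGFb libraries held 46.97, 48.65 and 47.54 FPKM of Ski and CLK8+TGFb libraries 47.74, 48.85 and 47.30. These groups overlapped each other and lay above all TGFb libraries, by 1.24-fold (log2 0.31, limma adjusted p = 1.35e-06) and 1.25-fold (log2 0.31, limma adjusted p = 3.08e-06). Without TGFb, CLK8 lowered Ski to 29.15, 27.68 and 27.81 FPKM (log2 -0.24, limma adjusted p = 8.1e-05), and SR9011 libraries held 33.93, 37.44 and 34.52 FPKM. Of these, SR9011 replicate 1 lay within the vehicle range, and without it Ski was called higher than vehicle (log2 0.10, limma adjusted p = 0.0447). The TGFb response of Ski was thus 0.43 within SR9011 and 0.75 within CLK8 on the log2 scale, larger than without compound by 0.23 (interaction, limma adjusted p = 0.00476) and by 0.55 (interaction, limma adjusted p = 2.11e-06). With SB431542 the Ski interaction was -0.03 (95% interval -0.15 to 0.10). Within SB431542 Ski rose by 0.17 with TGFb (limma adjusted p = 0.0216), a call lost under TPM scaling (adjusted p = 0.0741), in a fit of those groups alone (0.089, or 0.0263 with the replicate number as a block), and without SB431542 replicate 3 (0.129), SB431542+TGFb replicate 2 (0.108) or SB431542+TGFb replicate 3 (0.0891).

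Pmepa1 (ENSMUSG00000038400, chromosome 2, 173224458 to 173276533, minus strand) and Ldlrad4 (ENSMUSG00000024544, chromosome 18, 67933257 to 68268630, plus strand) encode related membrane proteins that bind SMAD2 and SMAD3 and keep them from the receptor. They had the widest ranges of the 10 genes, 58.9-fold between the highest and lowest group mean for Pmepa1 and 40.7-fold for Ldlrad4, against 11.6-fold for Skil and at most 2.51-fold for the others. Pmepa1 libraries held 5.42, 5.50 and 4.80 FPKM in vehicle and 69.60, 70.42 and 74.78 FPKM with TGFb. Ldlrad4 libraries held 1.59, 1.46 and 1.55 FPKM in vehicle and 10.48, 10.80 and 12.13 FPKM with TGFb. All TGFb libraries stood far above all vehicle libraries in both genes, 13.7-fold for Pmepa1 (log2 3.54, SE 0.063, limma adjusted p = 3.66e-22) and 7.26-fold for Ldlrad4 (log2 2.26, SE 0.080, limma adjusted p = 1.63e-16).

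SB431542 removed most of this difference and also lowered both genes where no TGFb was added. Pmepa1 stood at 1.84, 1.67 and 1.83 FPKM in SB431542 and at 4.34, 3.70 and 3.73 FPKM in SB431542+TGFb. Ldlrad4 stood at 0.29, 0.31 and 0.31 FPKM in SB431542 and at 0.92, 0.85 and 1.17 FPKM in SB431542+TGFb. All 6 libraries of these 2 groups lay below all vehicle libraries in both genes. SB431542 alone was 2.94-fold below vehicle for Pmepa1 (log2 -1.17, limma adjusted p = 2.4e-11) and 5.05-fold below for Ldlrad4 (log2 -0.96, limma adjusted p = 1.36e-08), a group mean of 0.303 FPKM that rests on values under 1 FPKM. With SB431542 present, TGFb still raised Pmepa1 2.2-fold (log2 0.82, limma adjusted p = 1.28e-08) and Ldlrad4 3.23-fold (log2 0.60, limma adjusted p = 5.08e-05). Against vehicle, SB431542+TGFb remained lower for Pmepa1 (log2 -0.34, limma adjusted p = 0.00228) and Ldlrad4 (log2 -0.36, limma adjusted p = 0.012), and the Ldlrad4 call was lost without vehicle replicate 1 (adjusted p = 0.0622) or SB431542+TGFb replicate 2 (adjusted p = 0.089).

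The clock compounds moved Pmepa1 in the other direction once TGFb was present. SR9011+TGFb libraries held 94.76, 99.98 and 99.12 FPKM and CLK8+TGFb libraries 105.37, 104.36 and 104.69 FPKM. The 3 TGFb groups without SB431542 did not overlap, with CLK8+TGFb above SR9011+TGFb and SR9011+TGFb above TGFb. Against TGFb, Pmepa1 was 1.37-fold higher with SR9011 (log2 0.45, limma adjusted p = 2e-06) and 1.46-fold higher with CLK8 (log2 0.54, limma adjusted p = 4.21e-07). Without TGFb, SR9011 libraries at 5.03, 5.20 and 6.28 FPKM overlapped vehicle, and CLK8 lowered Pmepa1 to 4.05, 4.38 and 4.19 FPKM (log2 -0.26, limma adjusted p = 0.00192). The rise with TGFb was therefore 17.8-fold within SR9011 and 24.9-fold within CLK8, and the interactions were 0.39 (limma adjusted p = 0.00192) and 0.80 (limma adjusted p = 2.49e-06).

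Ldlrad4 also had a larger response within the clock compounds. SR9011+TGFb libraries held 12.68, 12.02 and 12.33 FPKM and CLK8+TGFb libraries 11.73, 11.73 and 11.02 FPKM. Both overlapped TGFb alone, and the differences of 0.14 (95% interval -0.03 to 0.31) and 0.04 (95% interval -0.12 to 0.21) did not pass the test, though Ldlrad4 was called higher in SR9011+TGFb when that group and TGFb were fitted by themselves (adjusted p = 0.0409). Without TGFb, Ldlrad4 fell to 0.64, 0.74 and 0.83 FPKM with CLK8 (log2 -0.55, limma adjusted p = 8.21e-06) and was 0.86, 1.46 and 1.01 FPKM with SR9011 (log2 -0.27, limma adjusted p = 0.00446), where 1 library reached the vehicle range. The rise within SR9011 was 11.1-fold and within CLK8 15.6-fold, with interactions of 0.41 (limma adjusted p = 0.00789) and 0.59 (limma adjusted p = 0.00154). The SR9011 interaction did not pass under quantile normalization (0.25, adjusted p = 0.071). Ldlrad4 was the only member whose annotated span meets another gene of the table, Fam210a on the opposite strand, and no source used here gives the strand setting of the counting. Fam210a group means stayed between 4.36 and 5.2 FPKM.

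Smurf1 (ENSMUSG00000038780, chromosome 5, 144876495 to 144965847, minus strand) and Smurf2 (ENSMUSG00000018363, chromosome 11, 106820066 to 106920715, minus strand) encode ubiquitin ligases that SMAD7 brings to the receptor and that mark SMADs and receptors for degradation. Both rose with TGFb by less than the membrane adaptors. Smurf1 went from 17.97, 17.58 and 18.21 FPKM in vehicle to 23.87, 23.69 and 24.74 FPKM with TGFb, and Smurf2 from 26.04, 25.26 and 24.74 FPKM to 31.60, 30.57 and 29.62 FPKM. The groups did not overlap in either gene, and the rises were 1.34-fold for Smurf1 (log2 0.41, limma adjusted p = 4.57e-07) and 1.21-fold for Smurf2 (log2 0.26, limma adjusted p = 0.00015). SB431542 held both at vehicle levels in the presence of TGFb, with Smurf1 at 18.88, 18.62 and 18.37 FPKM and Smurf2 between 23.60 and 25.77 FPKM. Against TGFb these were lower by 0.35 for Smurf1 (limma adjusted p = 2.58e-06) and 0.29 for Smurf2 (limma adjusted p = 3.26e-05) on the log2 scale.

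The part of the Smad3 promoter that precedes its annotated starts is shown beside those of Smurf1 and Smurf2, since both Smurf genes rose with TGFb while Smad3 fell. The sequences are from RefSeq (GRCm38.p6), on the minus strand, at chr9:63757995-63758244 for Smad3, chr5:144965848-144966080 for Smurf1 and chr11:106920716-106920965 for Smurf2. Capitals mark CAGAC, a form of the SMAD-binding element, or its reverse complement GTCTG. Other forms of SMAD site were not searched.
Smad3: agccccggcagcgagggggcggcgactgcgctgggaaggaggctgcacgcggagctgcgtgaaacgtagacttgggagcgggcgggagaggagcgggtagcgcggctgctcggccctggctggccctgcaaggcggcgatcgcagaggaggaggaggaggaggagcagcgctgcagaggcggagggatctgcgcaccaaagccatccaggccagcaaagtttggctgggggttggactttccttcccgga
Smurf1: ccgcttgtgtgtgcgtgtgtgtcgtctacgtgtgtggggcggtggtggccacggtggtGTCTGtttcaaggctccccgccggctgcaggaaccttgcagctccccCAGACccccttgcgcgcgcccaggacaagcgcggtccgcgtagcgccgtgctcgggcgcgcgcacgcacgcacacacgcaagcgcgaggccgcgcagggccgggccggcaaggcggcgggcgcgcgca
Smurf2: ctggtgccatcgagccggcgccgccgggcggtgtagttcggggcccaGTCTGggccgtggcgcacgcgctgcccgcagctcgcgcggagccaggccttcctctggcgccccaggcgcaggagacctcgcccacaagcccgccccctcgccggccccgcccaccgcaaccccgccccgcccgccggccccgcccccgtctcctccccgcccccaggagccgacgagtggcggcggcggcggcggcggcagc
CAGAC was found 0 times in the Smad3 window, 2 times in that of Smurf1 and 1 time in that of Smurf2, counting both strands. It was also found 0 times in the 193 bases of the window of Ski, which rose with TGFb. Whether the motif bears on the direction of change was not tested. No window of the other 6 members was analysed here. CAGAC occurs in 42.2% of 32851 RefSeq promoter windows of 250 bases and in 40% of those of 233 bases, the length of the Smurf1 window. In windows of 193 bases, the length of the Ski window, it occurs in 34.9%. Neither the E-box CACGTG, which CLOCK and BMAL1 bind, nor AGGTCA, the core of the REV-ERB element, was found in any of the 3 windows. These motifs, also searched on both strands, occur in 6.02% and 14% of windows of 250 bases.

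SR9011 raised Smurf1 with or without TGFb. Its libraries held 26.63, 24.71 and 27.63 FPKM of Smurf1 without TGFb and 34.43, 35.15 and 35.29 FPKM with it, the latter above every other library of the study. The rise was 1.47-fold over vehicle (log2 0.53, limma adjusted p = 3.54e-09) and 1.45-fold over TGFb (log2 0.52, limma adjusted p = 7.58e-09), and the interaction of SR9011 with TGFb was -0.01 (95% interval -0.16 to 0.14). CLK8 did not change Smurf1 past the threshold without TGFb (log2 0.10, 95% interval -0.00 to 0.21) or with it (log2 0.08, 95% interval -0.02 to 0.19). For Smurf2 the SR9011 difference from vehicle was 0.18 (limma adjusted p = 0.00299), or 0.25 without SR9011 replicate 1, and it was lost under TPM scaling (0.11, adjusted p = 0.143) and quantile normalization (0.10, adjusted p = 0.0731). CLK8 lowered Smurf2 to 22.94, 22.28 and 22.43 FPKM (log2 -0.16, limma adjusted p = 0.0131), a call lost under TPM scaling (adjusted p = 0.0572) and without vehicle replicate 1 (adjusted p = 0.0544).

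**Figure D2:**
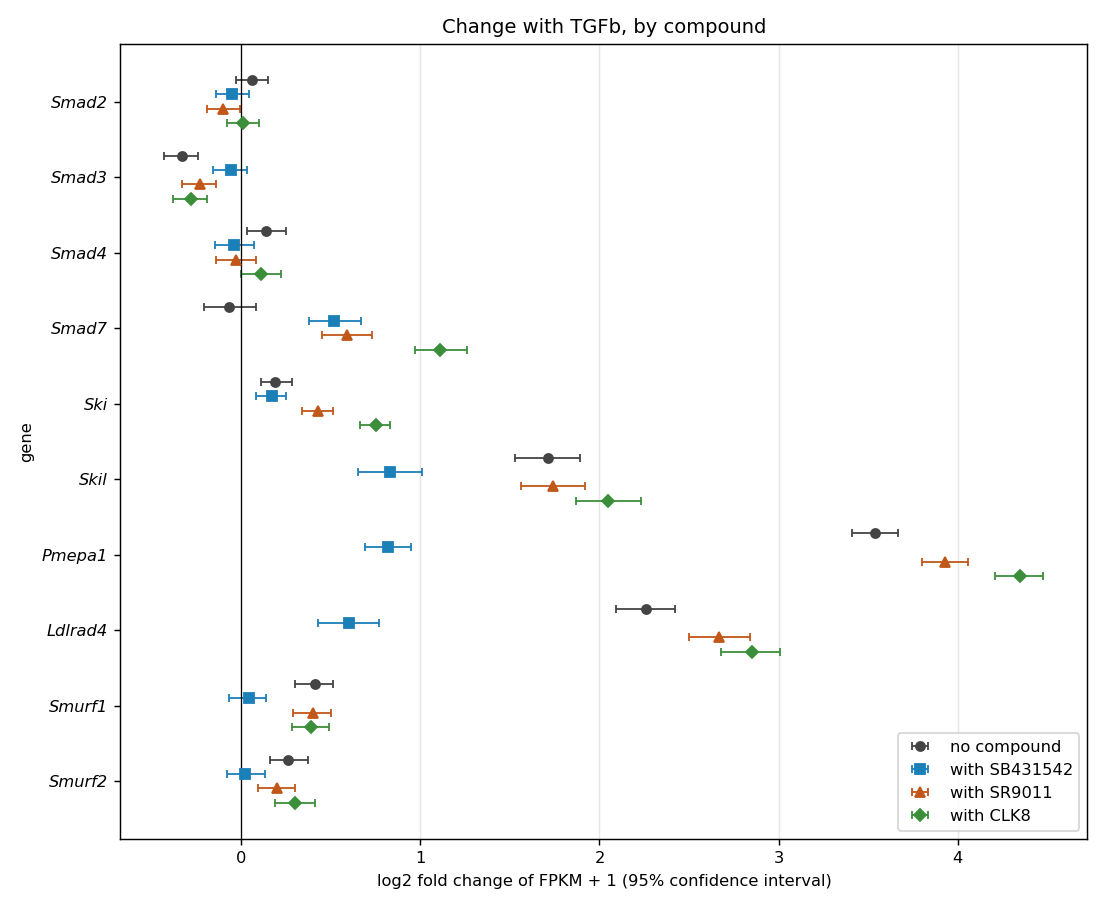
Log2 fold change of FPKM + 1 between groups with and without TGFb (horizontal axis) for the 10 genes, with no compound or within each compound; points are limma estimates and whiskers 95% confidence intervals. The Pmepa1 estimate runs from 0.82 with SB431542 to 4.35 with CLK8, and the Smad7 estimate lies at -0.07 with no compound and between 0.52 and 1.11 within the 3 compounds.

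Counted over the 10 genes, 7 rose and 1 fell with TGFb against vehicle, where 54.9% of all tested genes passed the test (20.5% higher and 34.4% lower). The split of all genes depends on the scaling, with 2311 higher and 3888 lower as reported, 3004 and 2885 under TPM, and 3068 and 3105 under quantile normalization. The members' median log2 change was 0.23, beside -0.05 over all tested genes. Within SR9011, TGFb raised 7 members and lowered Smad3, where 45.3% of all genes passed (14.3% higher and 31% lower), and the members' median was 0.41 beside -0.06. Smad7 was among these 7 and Smad4 was not, while without compound Smad4 was called higher and Smad7 was not. The Smurf2 call within SR9011 was lost in a fit of those groups alone (adjusted p = 0.051). Within CLK8, TGFb raised the same 7 members as within SR9011 and lowered Smad3, where 51.9% of all genes passed (17.3% higher and 34.6% lower), and the median was 0.57 beside -0.07. Among the calls over all genes, the higher share within SR9011 went from 31.6% to 43.7% under TPM and 43.2% under quantile normalization, and within CLK8 from 33.3% to 54.8% and 47.6%. Within SB431542, 5 members rose and none fell, where 4.36% of all genes passed (2.01% higher and 2.35% lower, a higher share of 46% that went to 59.5% under TPM), and the members' median was 0.10 beside -0.02. Those 5 were Smad7, Ski, Skil, Pmepa1 and Ldlrad4, and by the residual correlations the replicates of these 2 groups count as paired. With the replicate number as a block in a fit of these groups alone, the same count of 5 members passed and the count over all genes went from 493 to 1033.

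Each compound given alone was read against the same vehicle libraries. SB431542 raised 2 members and lowered 4, where 16.9% of all genes passed (11.9% higher and 5.05% lower), and the members' median was -0.08 beside 0.03 over all genes. SR9011 raised 4 and lowered 3, where 69.1% of all genes passed (40.7% higher and 28.3% lower), with a median of 0.08 beside 0.06. CLK8 raised 2 and lowered 6, where 43.9% of all genes passed (30.3% higher and 13.6% lower), with a median of -0.20 beside 0.06. Under quantile normalization the higher share of all calls went from 70.1% to 52.1% for SB431542 and from 69.1% to 52.1% for CLK8. For SR9011 the share of members that passed was thus near the background. Smad7 and Ldlrad4 were lower with all 3 compounds, Smad2 was higher with all 3, and Pmepa1 and Skil were lower with SB431542 and CLK8. The CLK8 rise of Smad4 was lost under TPM scaling (adjusted p = 0.0685), under quantile normalization (0.234) and without vehicle replicate 2 or 3 or CLK8 replicate 1 or 3 (between 0.0506 and 0.0843).

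In the presence of TGFb, SB431542 lowered 7 members and raised Smad3 against TGFb alone, where 59.7% of all genes passed (38.3% higher and 21.4% lower) and the members' median was -0.22 beside 0.07. SR9011 raised Smad4, Ski, Pmepa1 and Smurf1 and lowered Smad3, where 60.8% of all genes passed (36.8% higher and 24% lower), with a median of 0.13 beside 0.05. CLK8 raised Smad2, Ski and Pmepa1 and lowered none, where 41.1% of all genes passed (27.7% higher and 13.3% lower), with a median of 0.08 beside 0.05. The higher share of all calls went under quantile normalization from 64.2% to 49% for SB431542, from 60.5% to 48.7% for SR9011 and from 67.5% to 49.6% for CLK8, and under TPM to 45.8% for SR9011. The shares of members called for SR9011 and CLK8 were below the background, and they went to 8 and 5 members in a fit of the compared groups alone, where 66% and 45.2% of all genes passed, so that there they were above the background. The SB431542 calls of Smad4 and Ski against TGFb were each lost without certain libraries, Smad4 without TGFb replicate 1 or 3 or SB431542+TGFb replicate 1 or 2 (adjusted p between 0.062 and 0.101), and Ski without TGFb replicate 3 (0.0757) or SB431542+TGFb replicate 1 (0.0884). Against vehicle, Pmepa1 and Ldlrad4 alone passed in SB431542+TGFb, both lower, where 3.5% of all genes passed (2.88% higher and 0.62% lower, a higher share of 82.3% that went to 68.8% under quantile normalization). In SR9011+TGFb 9 members passed, beside 65.2% of all genes (34.8% higher and 30.5% lower). In CLK8+TGFb 9 passed, beside 55.3% of all genes (27.9% higher and 27.4% lower, a higher share of 50.5% that went to 68.9% under TPM, which moved the median of all genes from 0.01 to 0.11). In both of those groups the member that did not pass was Smad7, and Smad3 was the only one that was lower. The Smurf2 call in CLK8+TGFb was lost without vehicle replicate 2 or 3 or CLK8+TGFb replicate 1 or 2 (adjusted p between 0.0594 and 0.0989).

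**Figure D3:**
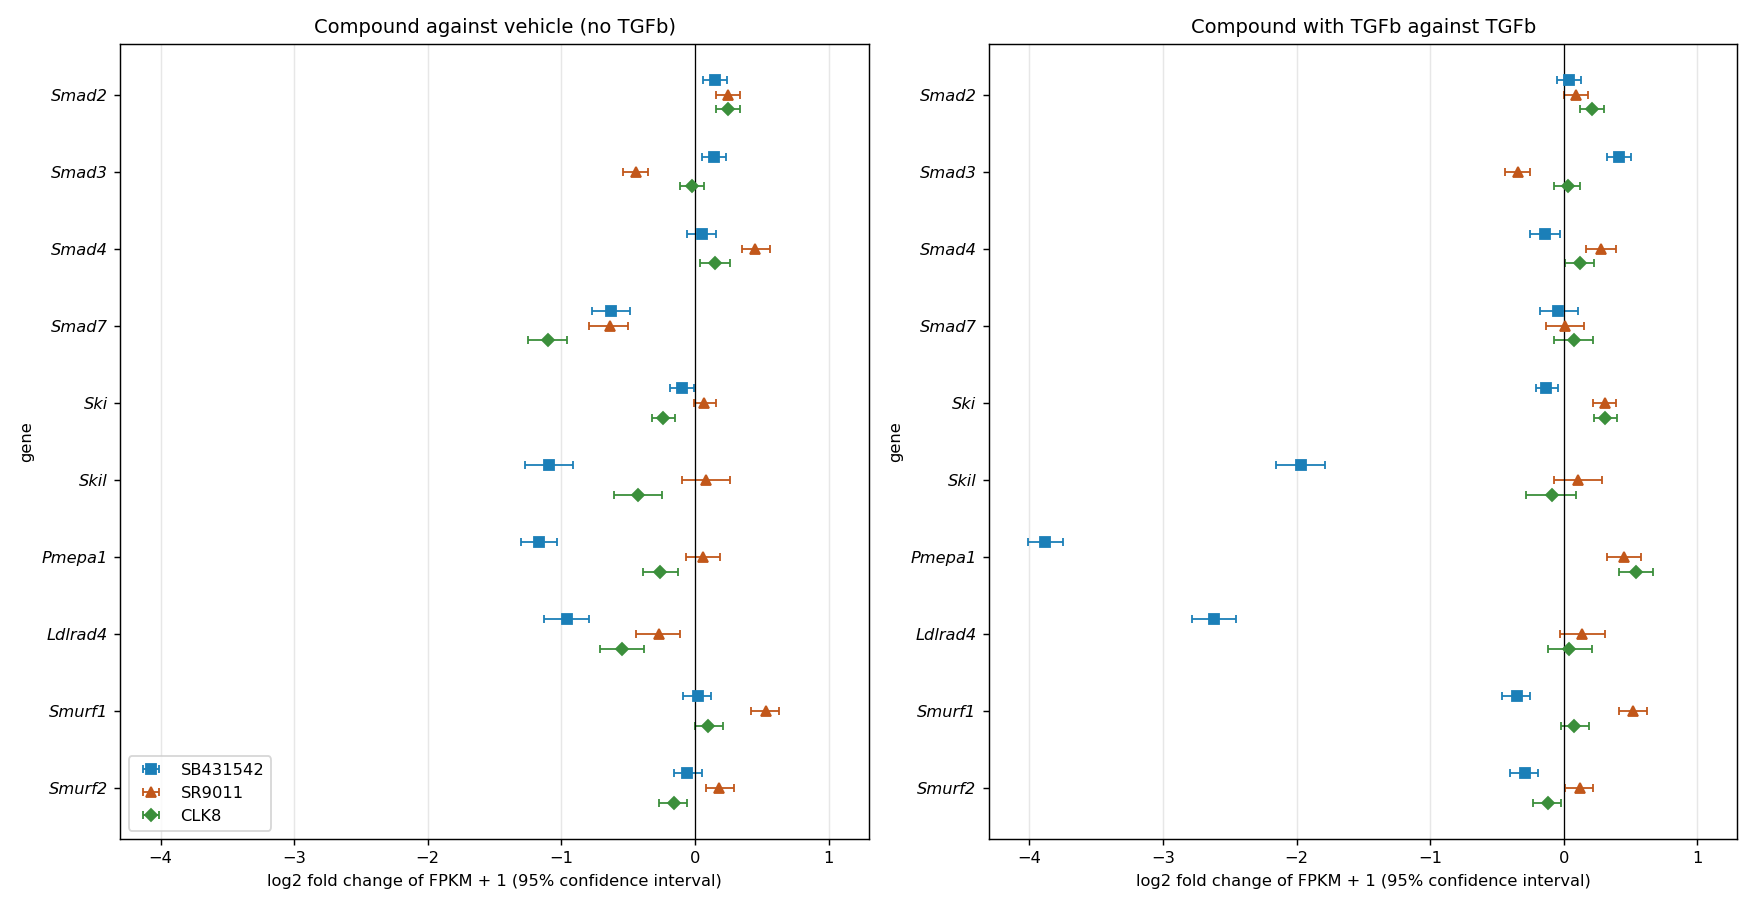
Log2 fold change of FPKM + 1 for each compound against vehicle (left) and for each compound with TGFb against TGFb (right), with limma estimates as points and 95% confidence intervals as whiskers. Smad7 is lower with all 3 compounds on the left, between -1.10 and -0.63, and its intervals include 0 on the right, while SR9011 points for Smad3 and Smurf1 lie at similar places in both panels.

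The TGFb response itself differed with SB431542 for 7 members, where 34.3% of all genes had an interaction past the threshold (21.5% higher and 12.8% lower, a higher share of 62.7% that went to 51.4% under TPM and 50.9% under quantile normalization). For Pmepa1 (-2.72), Ldlrad4 (-1.66) and Skil (-0.88) the rise was smaller with the inhibitor. Smurf1 (-0.37) and Smurf2 (-0.24) had no call within SB431542, with changes of 0.04 and 0.02. For Smad3 (0.27) the fall was smaller, and Smad7 (0.59) rose with the inhibitor while not passing the test without it. With SR9011 4 of 10 members had an interaction, near the share over all genes (31.9%, 16.6% higher and 15.3% lower). They were Smad7, Ski, Pmepa1 and Ldlrad4, each with a higher estimate. With CLK8 (7.97% of all genes, 4.58% higher and 3.39% lower, a higher share of 57.4% that went to 72.5% under TPM) these 4 also had one, again higher. These 2 comparisons share the vehicle and TGFb libraries. Their estimates were 0.66 and 1.18 for Smad7, 0.23 and 0.55 for Ski, 0.39 and 0.80 for Pmepa1, and 0.41 and 0.59 for Ldlrad4, with SR9011 first. The Skil interaction with CLK8 was 0.33 (limma adjusted p = 0.105) and passed under quantile normalization (0.38, adjusted p = 0.022) and in a fit of the compared groups alone (0.33, adjusted p = 0.0101). Without SR9011 replicate 1 the SR9011 interaction also passed for Smad4 (-0.26, limma adjusted p = 0.000365) and Smad2 (-0.19, limma adjusted p = 0.0125). For Smad2 it passed too with no filter, quantile normalization, moderation without trend and without TGFb replicate 3 (adjusted p between 0.0222 and 0.0447). The SB431542 interactions of Smad2 (-0.15, adjusted p = 0.0381) and Smad4 (-0.20, adjusted p = 0.0236) passed under quantile normalization. That of Smad4 also passed in a fit of the compared groups alone (0.0167) and without SB431542+TGFb replicate 3 (0.0482).

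Other genes of the pathway, listed by their known roles with earlier results of these data known, were read in the same fit. There 54.9% of all genes passed for TGFb against vehicle. Of the 4 BMP-branch SMADs, 1 rose with TGFb and 2 fell. Smad5, a BMP-activated SMAD, rose (log2 0.39, limma adjusted p = 3.64e-06). Smad9, another of that kind, fell 3.4-fold, from 3.15 to 0.927 FPKM (log2 -1.11, limma adjusted p = 5.16e-12), and the inhibitory Smad6 fell 1.88-fold (log2 -0.85, limma adjusted p = 1.65e-09). The ratio of Smad6 to Smad7, the 2 inhibitory SMADs, was 2.13 ± 0.0562 in vehicle and 1.19 ± 0.0445 in TGFb (SD, n = 3). With SB431542 present it was 2.91 ± 0.228 without and 2.28 ± 0.157 with TGFb. In the same order it was 2.82 ± 0.159 and 1.46 ± 0.0381 with SR9011, and 2.23 ± 0.225 and 1.19 ± 0.0657 with CLK8. The libraries of vehicle and TGFb did not overlap in this ratio. Smad6 itself was lower with CLK8 alone than in vehicle (7.5 against 17.9 FPKM), and within CLK8 it rose with TGFb, to 10 FPKM.

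**Figure D4:**
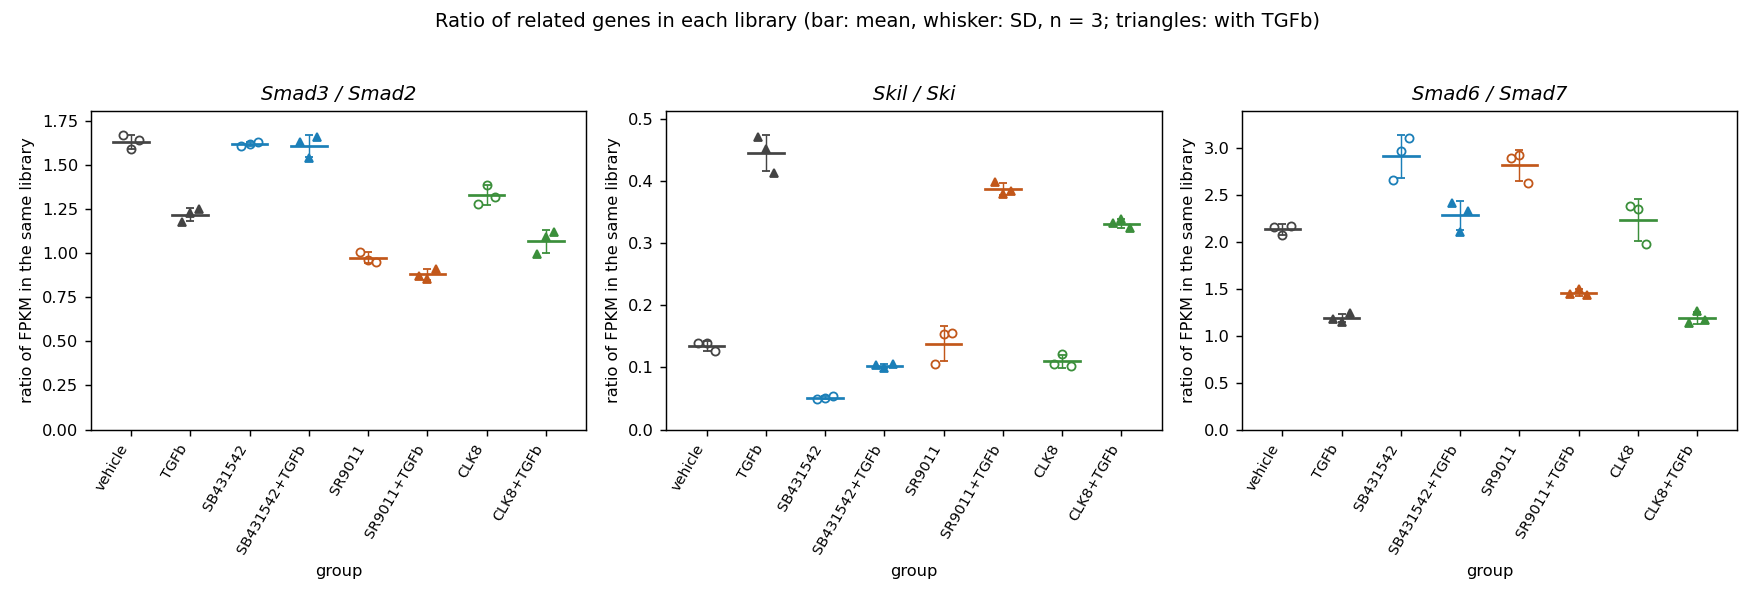
Ratio of FPKM of 2 related genes in the same library (vertical axes, linear and starting at 0) by group, with points for libraries (triangles where TGFb was given), bars for means and whiskers for the SD (n = 3). Smad3 to Smad2 is lowest in the SR9011 groups, Skil to Ski is highest in the 3 groups given TGFb without SB431542, and Smad6 to Smad7 is lowest in those same groups.

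Of the receptors and ligand-level inhibitors, 7 of 8 were tested, and with TGFb 3 rose and 3 fell. The pseudoreceptor Bambi fell 3.35-fold (log2 -1.35, limma adjusted p = 1.12e-12) and the coreceptor Tgfbr3 2.52-fold (log2 -1.24, limma adjusted p = 2.61e-12). The signalling receptors Acvr1 (log2 0.51) and Tgfbr2 (log2 0.32) rose. Bambi and Tgfbr3 were higher than vehicle with SB431542 (log2 0.40 and 0.32), a direction opposite to that of Pmepa1, Ldlrad4 and Skil in both comparisons. Among 11 corepressors and coactivators, 4 rose and 2 fell, where 20.5% of all genes were called higher and 34.4% lower. Only their total was near the 54.9% of all genes that passed. The smallest adjusted p was that of the corepressor Tgif1 (log2 0.84, limma adjusted p = 8.78e-12), which was also higher with SR9011 (log2 0.94) and CLK8 (log2 0.53) than in vehicle. Trim33 (log2 0.33) and Zeb1 (log2 0.25) rose and Zeb2 fell (log2 -0.26). Among 14 phosphatases, ubiquitin enzymes and adaptors, 6 rose and 2 fell, beside the same shares of all genes, and again only the total was near 54.9%. The ubiquitin ligase Wwp2 had the smallest adjusted p (log2 0.91, limma adjusted p = 9.88e-14). The ligase Stub1 (log2 -0.29) and the adaptor Dab2 (log2 -0.27) were the 2 that fell.

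All 8 tested SMAD target genes of a list of 10 rose with TGFb, with a median of 1.31, where 20.5% of all genes were called higher. They included the cell-cycle inhibitor Cdkn2b (log2 1.29), the transcription factor Snai1 (log2 1.60) and the matrix protein Tgfbi (log2 1.32). Within SR9011 and within CLK8, TGFb also raised all 8 (medians 1.28 and 1.36, with 14.3% and 17.3% of all genes higher). Within SB431542 it raised 5 (median 0.46, with 2.01% higher). The interaction was higher for 4 and lower for 1 with SR9011 (16.6% and 15.3% of all genes). With CLK8 it was higher for 4 (4.58%) and lower for none. With SB431542 it was lower for 5 (12.8%) and higher for none. In the presence of TGFb, SR9011 lowered 6 and raised 1 of these 8 (median -0.64, with 24% of all genes lower and 36.8% higher), and CLK8 lowered 3 and raised 2 (median 0.04, with 13.3% lower and 27.7% higher). Given alone, SB431542 lowered 6 of the 8 targets, SR9011 7 and CLK8 5, where 5.05%, 28.3% and 13.6% of all genes were called lower, while CLK8 raised 1, where 30.3% were called higher.

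For the 4 members whose group means spanned at least 1 on the log2 scale, the 3 genes with the most similar pattern were sought among 1866 others with such a span, by Pearson correlation over the 8 group means as a description. Pmepa1, Ldlrad4 and Skil had the same 3 nearest genes, Lpcat2, Scx and Ptprb, with correlations from 0.981 to 0.999. Lpcat2 encodes a phospholipid acyltransferase, Scx a tendon transcription factor and Ptprb a receptor phosphatase. Scx group means were 2.92 FPKM in vehicle, 13.3 in TGFb, 1.39 in SB431542, 2.44 in SB431542+TGFb, 17.4 in SR9011+TGFb and 18.1 in CLK8+TGFb. Smad7 was nearest to Unc5b (0.932), Ifitm10 (0.908) and Tagln (0.906). Mean levels of these 3 genes were all higher in TGFb than in vehicle, which Smad7 was not, at 35.2 and 49.5 FPKM for Unc5b, 8.21 and 10.1 for Ifitm10, and 52.5 and 119 for Tagln, which encodes a smooth muscle actin-binding protein. With CLK8 alone they stood at 18.8, 3.94 and 11 FPKM in the same order.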

How the data were processed

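RNA of 24 libraries was sequenced, with HISAT2 2.0.4, Bowtie2 2.2.5, RSEM, DESeq2 and mm10 named in the submitters' processing notes. Either of 2 RNA kits was used per the labels' protocols, and which library had which kit was not stated. The authors deposited FPKM, rounded to 2 decimals, on 16620 lines. Of these, 16 lines of 8 repeated identifiers were left out, which left 16604 genes, and 16561 of them matched GENCODE M21. FPKM keeps no read count, so no count test was run.

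The 11297 genes with at least 1 FPKM in at least 3 libraries, all 10 members among them, were tested as log2(FPKM + 1). One limma model (version 3.58.1, R 4.3.3) held the 8 groups, with trend and robust moderation, 16 residual degrees of freedom and 22.6 at the median after moderation. The 16 comparisons used 2-sided tests, Benjamini-Hochberg adjustment over all tested genes and a threshold of 0.05. Standard errors had medians of 0.064 (simple comparisons) and 0.090 (interactions). Scripts ran in Python 3.11.15 (numpy 2.4.6, pandas 2.3.3) and drawn in matplotlib 3.10.9.

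The members and gene lists were chosen with earlier results of these data known. Named genes were the members, up to 4 genes of each pathway list with the smallest adjusted p for TGFb against vehicle (1 of these is not reported here), and the 3 nearest patterns of each member that spans at least 1. The labels do not say what a replicate number marks. Same-numbered samples deviated together, with every correlation over 0.1, in 2 of 28 pairs of groups: SB431542+TGFb with SB431542 (0.415, 0.208 and 0.117) and with CLK8+TGFb, so the first, which is compared here, meets the rule for pairing. Reported values come from the fit without a block, and the blocked values stand beside them where they change a count or call. The alternatives tried were a pseudocount of 0.1 or 0.5, no filter, a filter of 5 FPKM, TPM, quantile normalization, moderation without trend, a replicate block, the compared groups alone, and each library left out.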

Additional observations from a re-analysis of the deposited data

Results flagged for a closer look

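The response to TGFb differed between cells with and without a compound, by the interaction term of the limma model, in 15 of the 30 member and compound combinations tested. Over all genes, 34.3% had an interaction with SB431542, 31.9% with SR9011 and 7.97% with CLK8. The 4 of 10 members called with SR9011 were near that background. With SB431542 the interactions were -2.72 for Pmepa1, -1.66 for Ldlrad4, -0.88 for Skil, -0.37 for Smurf1, -0.24 for Smurf2, 0.27 for Smad3 and 0.59 for Smad7. With SR9011 they were 0.66 for Smad7, 0.41 for Ldlrad4, 0.39 for Pmepa1 and 0.23 for Ski. With CLK8 they were 1.18 for Smad7, 0.80 for Pmepa1, 0.59 for Ldlrad4 and 0.55 for Ski. For Smad7 the groups with TGFb overlapped whatever the compound, and the groups given a compound without TGFb lay below vehicle. For Pmepa1 with SR9011 the difference lay in the groups with TGFb, where SR9011+TGFb was above TGFb, and the groups without TGFb overlapped.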

How the results depend on the processing

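Of 160 member results (10 genes in 16 comparisons), 128 had the same call under every alternative run, 32 changed call under at least 1, and no called direction reversed. The member count went from 5 to 8 for SR9011+TGFb against TGFb and from 3 to 5 for CLK8+TGFb against TGFb in a fit of the compared groups alone, where the counts over all genes also rose, from 6871 to 7456 and from 4638 to 5106, and the cause was not tested. For SB431542+TGFb against vehicle, leaving out 1 library gave 1 to 2 members, the lower count without vehicle replicate 1 or SB431542+TGFb replicate 2, where Ldlrad4 was lost. The replicate number as a block in the model of all groups changed no member's call. With this block, 8 of 10 members were called for TGFb against vehicle, beside 6265 of all 11297 genes tested. For SB431542, SR9011 and CLK8 against vehicle the member counts were 6, 7 and 8, beside 2030, 7860 and 5059 genes. For the same compounds with TGFb against TGFb they were 8, 5 and 3, beside 6811, 6940 and 4765 genes. As without the block, the member share was near the background for SR9011 alone, and below it for SR9011 and CLK8 with TGFb. Over all genes, SB431542+TGFb against SB431542 went from 493 called to 1033 with the replicate block in these groups alone, and to between 199 and 244 without SB431542 replicate 3 or SB431542+TGFb replicate 1 or 2. SB431542+TGFb against vehicle went from 395 to between 180 and 240 without any vehicle library or without SB431542+TGFb replicate 2 or 3. Read totals are unknown, so counting error cannot be given, which bears most on Ldlrad4 in the SB431542 groups.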
